A study of Mus musculus with 7 samples.

Results

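The genes described here are 32 interferon-stimulated genes, the transcripts that cells make in larger amounts when a type I interferon binds its receptor. They were taken by gene name from a deposited table of 54532 genes, and all 32 names were found. The rule uses the names alone and no measured value, but the list was chosen with earlier results of these data known. The libraries were made from kidneys of C57BL/6J mice, which were male per the design text and between 6 and 8 weeks old. There were 3 libraries of mice given cisplatin and DXZ, and 4 libraries of mice given cisplatin and saline. Cisplatin, a platinum drug that injures kidney tubules, was given to both groups at 20 mg/kg into the tail vein. DXZ, which the labels do not spell out, was given by the same route at 40 mg/kg, 30 minutes before cisplatin and every 24 hours for 3 days. All comparisons are thus made between kidneys of mice given cisplatin, and mice without cisplatin were not analysed here. Whether each library stands for its own animal is not given in the labels, so p-values measure only the spread between libraries, which may be technical.

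Type I interferons are secreted by cells whose RNA or DNA sensors have met viral nucleic acid, or their own nucleic acid in the wrong compartment. They bind a receptor made of IFNAR1 and IFNAR2, whose kinases JAK1 and TYK2 phosphorylate proteins of the STAT family, STAT2 among them. With IRF9 these form the complex ISGF3, which binds the interferon-stimulated response element (ISRE) in the promoters of its target genes. Many of the products sense foreign RNA, block translation or viral entry, or adjust the response itself, and several also respond to interferon gamma. Most cell types of the kidney can respond, including tubule, endothelial and immune cells.

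The libraries held between 16058157 and 18133736 counts, with 20803 to 21827 genes detected. The kidney markers Lrp2, Umod, Slc12a1, Aqp2 and Nphs1 were present in every library. Levels are given as CPM, counts scaled to a common library size after edgeR's TMM adjustment. Differences are log2 fold changes of DXZ over saline from edgeR's quasi-likelihood test, with p-values adjusted over all 15351 tested genes by the Benjamini-Hochberg method. Across those genes, 498 (3.24%) were higher and 355 (2.31%) lower in DXZ at an adjusted p below 0.05. DXZ 1 stood apart among the DXZ libraries: the summed levels of macrophage, endothelial and fibroblast marker genes were higher in it than in DXZ 2 and DXZ 3, with values given beside the spread between libraries. In whole tissue, a change in the number of cells of a type cannot be told apart from a change in RNA per cell.

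Interferon-stimulated genes had higher mean levels in DXZ kidneys than in saline kidneys, but no single member passed the adjusted threshold. Of the 32 members, 30 passed edgeR's filter on low counts. Of these 30, 0 were higher and 0 lower at an adjusted p below 0.05, against 3.24% higher and 2.31% lower among all tested genes, so that a count of 0 in 30 lies close to the background. At an unadjusted p below 0.05, 12 were higher and 0 lower, against 14.0% and 11.4% of all tested genes. DESeq2 called 9 of the 30 higher and 0 lower, against 7.61% and 6.18% of all tested genes. All 30 fold changes were positive, against 51.3% of all tested genes, and they ranged between 0.10 and 1.36 on the log2 scale. With sample quality weights (limma-voom), the fold change of 1 member, Ifi27l2a, turned negative at -0.21. Their median was 0.71, against 0.01 over all tested genes.

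These figures depended on which libraries were compared. Without DXZ 1, the median fold change of the members was 0.27 (close to 0 over all genes), and 27 of 30 were positive. At an adjusted p below 0.05, 1 member (Ifit1) was then higher and 0 lower, against 5.07% and 5.01% of all tested genes. Without DXZ 2 the median was 0.94, and without the other libraries it lay between 0.57 and 0.89. With all libraries, 9 of 30 members (30.0%) had every DXZ library above every saline library, against 12.8% of all tested genes, and 0 had every DXZ library below, against 11.3%. The count above was 9 without DXZ 1 (20.8% of all genes), 17 without DXZ 2 (17.8%) and 19 without saline 2 (15.6%). The count at an unadjusted p below 0.05 was 8 without DXZ 1 (15.0% of all genes), 21 without DXZ 2 (11.2%) and 18 without saline 2 (12.5%).

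**Figure D1:**
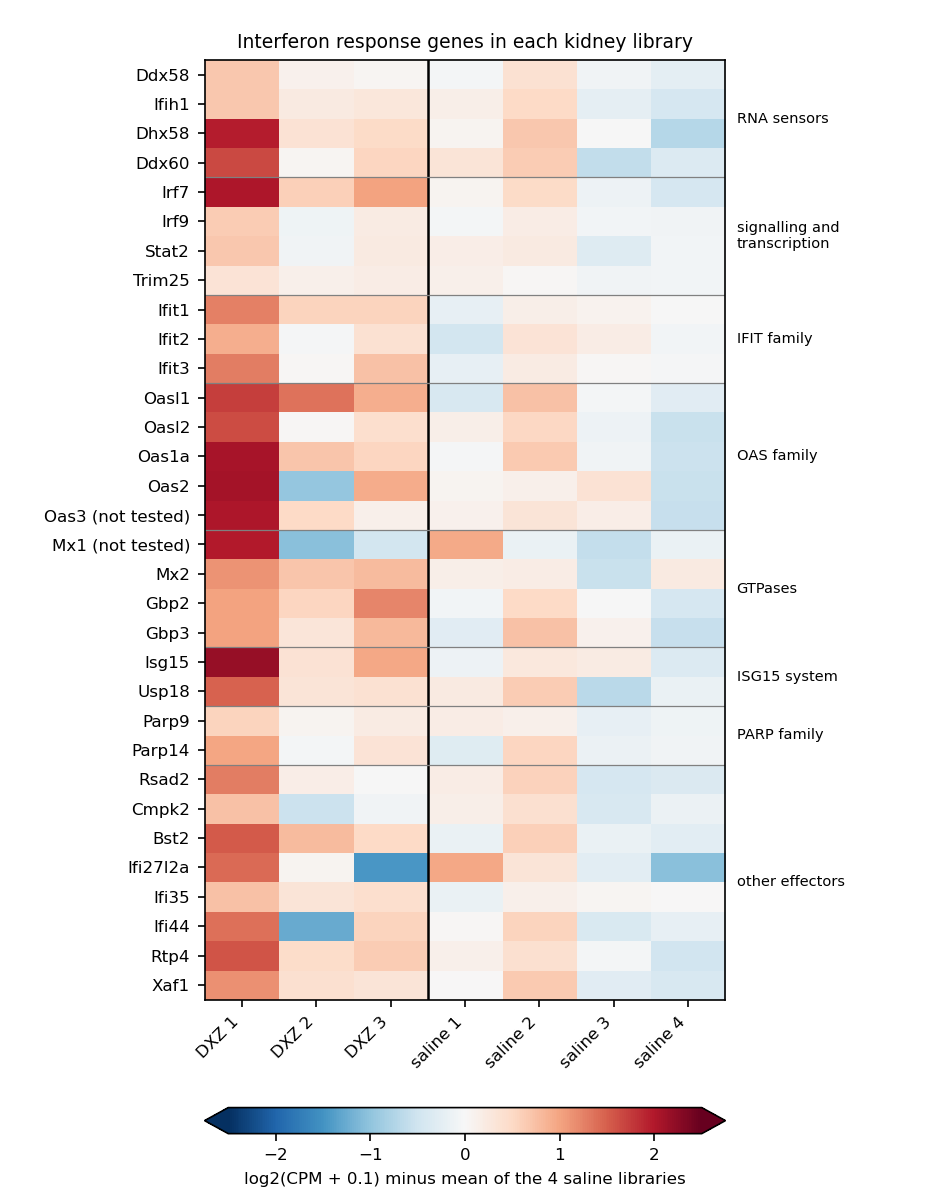
Level of each of the 32 interferon-stimulated genes (rows, grouped by role) in each library (columns, DXZ then saline). Colours show log2 CPM, with a small constant added, less the gene's mean over the 4 saline libraries. The DXZ 1 column holds the highest value in 29 of the 30 tested members, and saline 2 holds the highest saline value in 25.

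The DNA before the start of several members holds the core letters of the ISRE, GAAA, any 2 bases and GAAA, on either strand. Promoter windows of 300 bases (250 before to 50 after the start, RefSeq, GRCm38.p6) were matched for 23 of the 32 members, some with more than 1 window. The ISRE core was present in 13 of 26 member windows (50%), against 1131 of 32851 windows of all genes (3.44%). Sequences are shown for members described below in every library whose matches lie outside the gene's span in the deposited table, to let the letters be compared between genes. They run 5′ to 3′ on the gene's strand, and capitals mark the ISRE core, with overlapping matches run together.
Ifit1 (chr19:34640760-34640838, plus strand): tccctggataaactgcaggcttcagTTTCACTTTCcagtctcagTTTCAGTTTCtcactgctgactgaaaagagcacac
Isg15 (chr4:156200850-156200921, minus strand): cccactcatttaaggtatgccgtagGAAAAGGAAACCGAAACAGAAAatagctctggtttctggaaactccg
Bst2 (chr8:71537562-71537627, minus strand): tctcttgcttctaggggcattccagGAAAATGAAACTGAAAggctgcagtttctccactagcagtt
Ifit3 (chr19:34583348-34583441, plus strand): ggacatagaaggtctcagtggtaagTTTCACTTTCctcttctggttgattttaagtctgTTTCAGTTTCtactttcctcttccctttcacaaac
Oas1a (chr5:120907526-120907570, minus strand): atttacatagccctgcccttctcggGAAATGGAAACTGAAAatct
Counted from the transcription start, the cores began at positions -104 and -85 in Ifit1, -156 and -122 in Ifit3, and -20 and -14 in Oas1a. Isg15 held 3 overlapping cores from position -78, and Bst2 held 2 overlapping cores from position -130. The GAS letters, TTC, any 3 bases and GAA, an element of the interferon gamma response, were present in 4 of 26 member windows (15.4%), against 8.30% of all windows. The windows of Irf7, Oasl1, Ifi35 and Trim25 held no ISRE core in these letters. Among tested members with a core the median fold change was 0.80 (12 genes, 0.28 to 1.36), and among those with a window but no core it was 0.52 (10 genes, 0.10 to 1.31). The ranges overlapped almost entirely, and no test was run on this split.

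The sensors of viral RNA in the cytoplasm come first in the pathway. Dhx58 encodes LGP2, which tunes the activity of the other sensors (11:100694884-100704271, GRCm38, as are all gene positions here). It was present at 9.19, 2.96 and 3.25 CPM in DXZ 1 to 3, against 2.41, 3.69, 2.26 and 1.35 CPM in saline 1 to 4. DXZ 1 was far above all other libraries, while DXZ 2 and DXZ 3 lay inside the saline range. The log2 fold change of DXZ over saline was 1.08 (SE 0.48, edgeR adjusted p = 0.205), and 0.36 without DXZ 1. Ddx58, which encodes RIG-I, Ifih1, which encodes MDA5, and Ddx60, a helicase reported to assist RIG-I, showed the same pattern. In each of them only DXZ 1 exceeded every saline library, and their fold changes were 0.28, 0.36 and 0.87.

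Among the regulators of the response, Irf7, the transcription factor that amplifies interferon production (7:141262706-141266481), was present at 102, 38.3 and 50.8 CPM in DXZ 1 to 3, against 26.5, 35, 23.1 and 18.9 CPM in saline 1 to 4. All 3 DXZ libraries lay above all 4 saline libraries, and DXZ 1 was the highest by a wide margin. The means were 63.8 ± 33.9 CPM in DXZ (SD, n = 3) and 25.9 ± 6.86 CPM in saline (SD, n = 4). The log2 fold change was 1.30 (SE 0.34, edgeR adjusted p = 0.0623), and 0.78 without DXZ 1 (adjusted p = 0.0729). Irf7 overlaps Phrf1 on the other strand, and since the use of strand in counting is not given, reads of the pair cannot be told apart. Trim25, the ubiquitin ligase that activates RIG-I (11:88999376-89020293), was present at 118, 100.5 and 105 CPM in DXZ 1 to 3, against 100.3, 93.5, 87.2 and 88.4 CPM in saline 1 to 4. The groups did not overlap, but DXZ 2 and saline 1 differed by a small fraction of a CPM. For Trim25 the log2 fold change was 0.22 (SE 0.10, edgeR adjusted p = 0.196). Stat2 and Irf9, which encode subunits of ISGF3, had fold changes of 0.29 and 0.28. In both, DXZ 1 and DXZ 3 lay above every saline library and DXZ 2 did not, although DXZ 3 exceeded saline 2 by little. Irf9 shares part of its span with Rnf31 on the same strand.

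The ISG15 system attaches a ubiquitin-like protein to other proteins and removes it again. Isg15, the modifier itself (4:156199424-156200818), was present at 34.2, 9.74 and 14.8 CPM in DXZ 1 to 3, against 6.88, 9.04, 8.67 and 5.88 CPM in saline 1 to 4. All DXZ libraries exceeded all saline libraries, DXZ 1 by far and DXZ 2 by little. With means of 19.6 ± 12.9 CPM in DXZ (SD, n = 3) and 7.62 ± 1.5 CPM in saline (SD, n = 4), it had the largest fold change of the tested members, 1.36 on the log2 scale (SE 0.39, edgeR adjusted p = 0.0807). Without DXZ 1 that value was 0.69 (adjusted p = 0.105). Usp18, the protease that removes ISG15 and dampens signalling at IFNAR2, had a fold change of 0.76, with only DXZ 1 above every saline library.

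The IFIT proteins bind viral RNA and block its translation. Ifit1 (19:34640871-34650009), whose promoter letters are printed above, was present at 26.1, 16.1 and 16.2 CPM in DXZ 1 to 3, against 9.40, 12, 11.6 and 10.8 CPM in saline 1 to 4. All DXZ libraries lay above all saline libraries, and DXZ 2 and DXZ 3 were nearly equal. The log2 fold change was 0.83 (SE 0.20, edgeR adjusted p = 0.0510), the lowest adjusted p among the members. Without DXZ 1 it was 0.56, with an adjusted p of 0.0498, just past the threshold that it missed with all libraries. Ifit3 (19:34583531-34588731) was present at 80.3, 34 and 55 CPM in DXZ 1 to 3, against 28.6, 38.2, 33.9 and 32.7 CPM in saline 1 to 4. DXZ 1 and DXZ 3 exceeded every saline library, and DXZ 2 lay inside the saline range. Its log2 fold change was 0.76 (SE 0.25, edgeR adjusted p = 0.112), and the near-identical copy Ifit3b makes its counts uncertain. Ifit2 likewise had DXZ 1 and DXZ 3 above every saline library, with a fold change of 0.44.

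**Figure D2:**
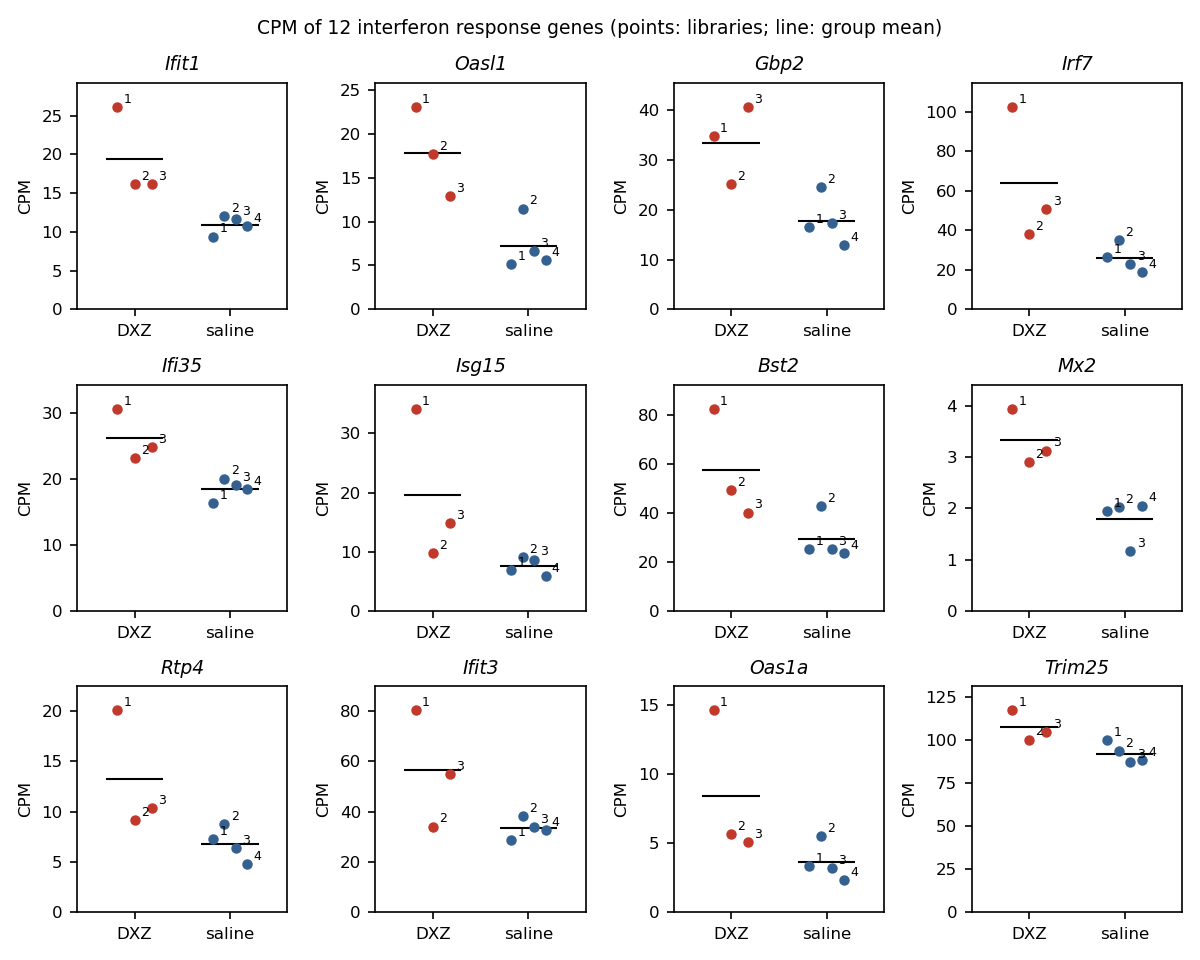
CPM in each library (points, numbered by replicate) of the 12 tested members of lowest p, with DXZ left of saline and the mean of each group as a line. In 9 panels every DXZ point lies above every saline point, and DXZ 1 is the top point in 11 of 12, the exception being Gbp2.

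The OAS enzymes make the second messenger 2-5A, which activates RNase L. Oasl1, a relative without that activity that in mice restrains translation of Irf7 (5:114923240-114937915), was present at 23, 17.7 and 12.9 CPM in DXZ 1 to 3, against 5.16, 11.5, 6.66 and 5.58 CPM in saline 1 to 4. The groups did not overlap, and the lowest DXZ library, DXZ 3, stood close above saline 2. The means were 17.8 ± 5.06 CPM in DXZ (SD, n = 3) and 7.22 ± 2.91 CPM in saline (SD, n = 4), and the log2 fold change was 1.31 (SE 0.31, edgeR adjusted p = 0.0513). It moved little without DXZ 1, to 1.08 (adjusted p = 0.0739). Oas1a (5:120896256-120907521), a gene with near-identical neighbours, was present at 14.7, 5.68 and 5.08 CPM in DXZ 1 to 3, against 3.38, 5.53, 3.24 and 2.35 CPM in saline 1 to 4. DXZ 1 was the highest by far, DXZ 2 exceeded saline 2 by little, and DXZ 3 lay inside the saline range. Its log2 fold change was 1.22 (SE 0.43, edgeR adjusted p = 0.128), and 0.57 without DXZ 1. Oas2 spread widely within DXZ, with 10.8, 1.21 and 4.78 CPM in DXZ 1 to 3, against 2.58, 2.68, 3.18 and 1.65 CPM in saline 1 to 4. DXZ 2 was the lowest of all 7 libraries and DXZ 1 the highest, and the fold change was 1.15. Oasl2 had a fold change of 0.81, with only DXZ 1 above every saline library. Oas3 did not pass the filter, with 28, 8 and 6 counts in DXZ 1 to 3, against 6, 7, 6 and 3 counts in saline 1 to 4.

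The interferon-induced GTPases comprise the MX proteins, which block incoming viral particles, and the guanylate-binding proteins, which act on pathogens inside vacuoles. Gbp2 (3:142620602-142638008) was present at 34.7, 25.1 and 40.5 CPM in DXZ 1 to 3, against 16.5, 24.4, 17.2 and 12.9 CPM in saline 1 to 4. All DXZ libraries lay above all saline libraries, and it was the one tested member whose highest library was DXZ 3. Its log2 fold change was 0.91 (SE 0.23, edgeR adjusted p = 0.0606), and 0.89 without DXZ 1 (adjusted p = 0.0753). Mx2 (16:97535308-97560900) was present at 3.95, 2.90 and 3.13 CPM in DXZ 1 to 3, against 1.95, 2.02, 1.16 and 2.06 CPM in saline 1 to 4. The groups did not overlap, and saline 3 stood below the other saline libraries. For Mx2 the log2 fold change was 0.88 (SE 0.28, edgeR adjusted p = 0.101), and the deposited annotation labels this gene a polymorphic pseudogene. Gbp3 had a fold change of 0.66, with DXZ 1 and DXZ 3 above every saline library. Mx1 did not pass the filter, with 48, 4 and 7 counts in DXZ 1 to 3, against 22, 9, 6 and 9 counts in saline 1 to 4. Most of its DXZ counts came from DXZ 1, and DXZ 2 and DXZ 3 had fewer counts than the highest saline libraries. Mx1 carries a deletion in many laboratory mouse strains, among them C57BL/6.

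The PARP members had small differences. Parp9 (16:35938470-35972605), which with DTX3L modifies histones, was present at 36.4, 26.2 and 28.8 CPM in DXZ 1 to 3, against 28.2, 27, 21.6 and 23 CPM in saline 1 to 4. DXZ 3 exceeded saline 1 by little and DXZ 2 lay inside the saline range. The log2 fold change was 0.29 (SE 0.15, edgeR adjusted p = 0.272), and Parp9 overlaps Dtx3l on the other strand. Parp14, a mono-ADP-ribosyltransferase, had a fold change of 0.46, with only DXZ 1 above every saline library.

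Among the other effectors, Bst2, or tetherin, which holds budding virus at the cell surface (8:71534255-71537456), was present at 82.4, 49.3 and 40.1 CPM in DXZ 1 to 3, against 25.2, 42.7, 25.3 and 23.4 CPM in saline 1 to 4. DXZ 1 and DXZ 2 lay above every saline library, and DXZ 3 lay just below saline 2. With means of 57.3 ± 22.3 CPM in DXZ (SD, n = 3) and 29.2 ± 9.06 CPM in saline (SD, n = 4), its log2 fold change was 0.97 (SE 0.29, edgeR adjusted p = 0.0860), and 0.62 without DXZ 1. Ifi35 (11:101448407-101458698), a partner of NMI, was present at 30.6, 23.1 and 24.7 CPM in DXZ 1 to 3, against 16.3, 20.0, 19 and 18.4 CPM in saline 1 to 4. No DXZ library overlapped the saline group, and both groups were tight. For Ifi35 the log2 fold change was 0.50 (SE 0.13, edgeR adjusted p = 0.0625), and 0.38 without DXZ 1. Rtp4, a receptor transporter induced by interferon (16:23520291-23614222), was present at 20.1, 9.19 and 10.3 CPM in DXZ 1 to 3, against 7.28, 8.74, 6.41 and 4.76 CPM in saline 1 to 4. DXZ 2 exceeded saline 2 by a small margin, and DXZ 1 was the highest by far. For Rtp4 the log2 fold change was 0.96 (SE 0.31, edgeR adjusted p = 0.106), and the gene overlaps Masp1 on the other strand.

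In 3 effectors the sign of the difference turned without DXZ 1. Cmpk2, a mitochondrial nucleotide kinase beside Rsad2 in the genome, was at 20.2, 8.28 and 11.3 CPM in DXZ 1 to 3, against 13.5, 16, 9.10 and 10.9 CPM in saline 1 to 4. Its fold change was 0.10, and it was -0.33 without DXZ 1 and -0.02 without saline 3. Ifi44 was at 20.0, 3.14 and 11.4 CPM in DXZ 1 to 3, against 7.85, 11.3, 5.86 and 6.64 CPM in saline 1 to 4, and its fold change was 0.54, and -0.12 without DXZ 1. DXZ 2 was the lowest of all libraries in both genes. Ifi27l2a, which has a near-identical neighbour, was at 25.6, 9.98 and 3.42 CPM in DXZ 1 to 3, against 18.7, 12, 7.88 and 4.58 CPM in saline 1 to 4. DXZ 1 was its highest library and DXZ 3 its lowest, with a fold change of 0.27, and -0.69 without DXZ 1. Rsad2, which encodes viperin and makes a chain-terminating nucleotide, had a fold change of 0.54, and 0.02 without DXZ 1. Xaf1, an inhibitor of the anti-apoptotic protein XIAP, had fold changes of 0.62 and 0.31.

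**Figure D3:**
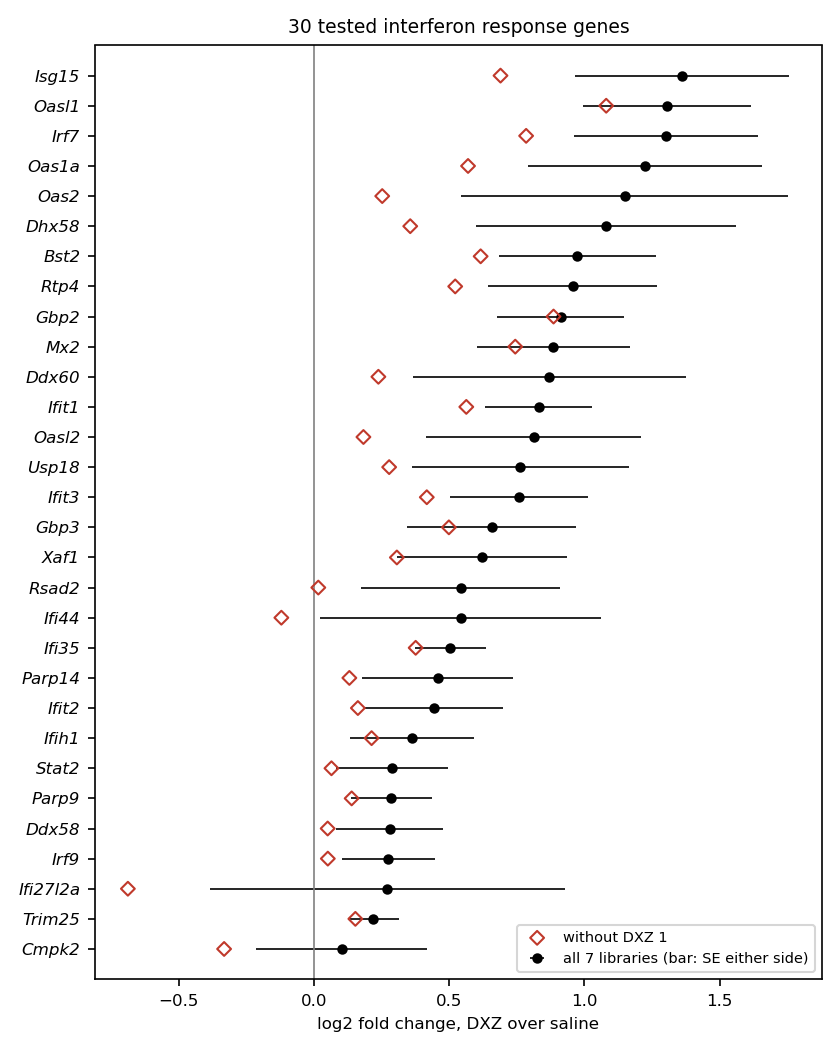
Log2 fold change of DXZ over saline of the 30 tested members, with a bar of the standard error either side, beside the value without DXZ 1. All 30 points lie above 0 with all libraries, and without DXZ 1 the points of Cmpk2, Ifi27l2a and Ifi44 lie below it.

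The spread inside each group was wide for these genes. The standard deviation of log2 CPM had a median of 0.53 in DXZ and 0.38 in saline over the 30 members, against 0.24 and 0.20 over all tested genes. It was larger in DXZ than in saline for 24 of 30 members, against 61.0% of all tested genes. DXZ 1 was the highest of the 7 libraries in 29 of 30 members, against 18.7% of all tested genes. It exceeded the mean of DXZ 2 and DXZ 3 by a median of 0.86 on the log2 scale (range 0.12 to 2.11), against 0.02 over all tested genes. Within saline, saline 2 was the highest library in 25 of 30 members (24.1% of all genes), and saline 4 was the lowest in 15 (25.4% of all genes).

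Set against the saline mean, the members' median difference was 1.26 in the first DXZ library, 0.20 in the second and 0.45 in the third. DXZ 1 was above every saline library in 30 of 30 members, DXZ 2 in 11 and DXZ 3 in 17, against 33.3%, 32% and 31.6% of all tested genes. In 11 members DXZ 1 alone exceeded every saline library, against 11.4% of all tested genes. The members' mean log2 level, less its mean over the 7 libraries, was 0.99, -0.08 and 0.17 in DXZ 1 to 3, against -0.25, 0.15, -0.41 and -0.56 in saline 1 to 4. On this measure saline 2 lay between DXZ 2 and DXZ 3, so that the groups overlapped.

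Markers of other cell types also separated DXZ 1 from the other DXZ libraries. Summed over 13 macrophage genes, the level was 451, 200.3 and 143 CPM in DXZ 1 to 3, against 151 to 275 CPM in saline. DXZ 1 was the highest library in 10 of 13, against 18.7% of all tested genes. Of these 13 genes, 2 (Cd68 and Cd14) were higher in DXZ by edgeR, against 3.24% of all tested genes. Both were at least as high in DXZ 2 as in DXZ 1. Much of the sum came from Cd68 and Cd14 in DXZ 2 (57.0 and 67.1 CPM) and DXZ 3 (32.1 and 65.7 CPM). Taken gene by gene, the list's median log2 difference from the saline mean fell to -1.04 (DXZ 2) and -1.63 (DXZ 3), against 1.27 (DXZ 1). Only 3 of the 13 genes exceeded that mean in the second DXZ library, and 2 in the third. The list's median fold change was 0.07 with all libraries and -1.44 without DXZ 1. The sum over 10 endothelial genes was 884, 240.3 and 153 CPM in DXZ 1 to 3, against 465 to 828 CPM in saline. The sum over 7 fibroblast genes was 809, 96.6 and 55.7 CPM in DXZ 1 to 3, against 142 to 550.2 CPM in saline. In both of these sums DXZ 2 and DXZ 3 were below every saline library.

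Monocyte, neutrophil, T cell and conventional dendritic cell sums likewise had DXZ 1 as the highest library. They were 51.5 to 107, 5.43 to 17.9, 1.83 to 7.16 and 6.73 to 23.4 CPM in DXZ, against 43.6 to 70.8, 3.96 to 9.16, 2.59 to 6.54 and 14.2 to 19.7 CPM in saline. Most of the monocyte sum was Plac8, at 73.8, 44.0 and 47.2 CPM in DXZ 1 to 3. The conventional dendritic cell sum was 9.43 CPM in DXZ 2 and 6.73 CPM in DXZ 3, both below every saline library. B cell sums were 1.03 to 2.82 CPM in DXZ, against 0.53 to 1.95 CPM in saline, and NK cell sums were 0.53 to 1.35 CPM in DXZ, against 0.24 to 2.01 CPM in saline. For plasmacytoid dendritic cells, a main source of type I interferon, 6 genes were listed, and their levels differed widely. Klk1 was at 1137 to 2361 CPM and Tcf4 at 14.8 to 26.8 CPM over the libraries, so that Klk1 made up most of the list's sum. Only Klk1 and Tcf4 passed the filter on low counts. Since the other listed genes had few or no counts, the sum was not read as a level of these cells. Cox6a2 had 0 to 20 counts and Spib 0 to 12 counts. Siglech and Ccr9 had 0 to 4 counts in each library. Xcr1, Ncr1 and the haemoglobin genes were near 0 as well. Proximal tubule markers were lower in DXZ, at 1038 to 1750 CPM, against 3375 to 9021 CPM in saline. Of these 9 genes, 6 were lower at the adjusted threshold, against 2.31% of all tested genes. The part of these cell types in the interferon-stimulated genes' difference was not tested.

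**Figure D4:**
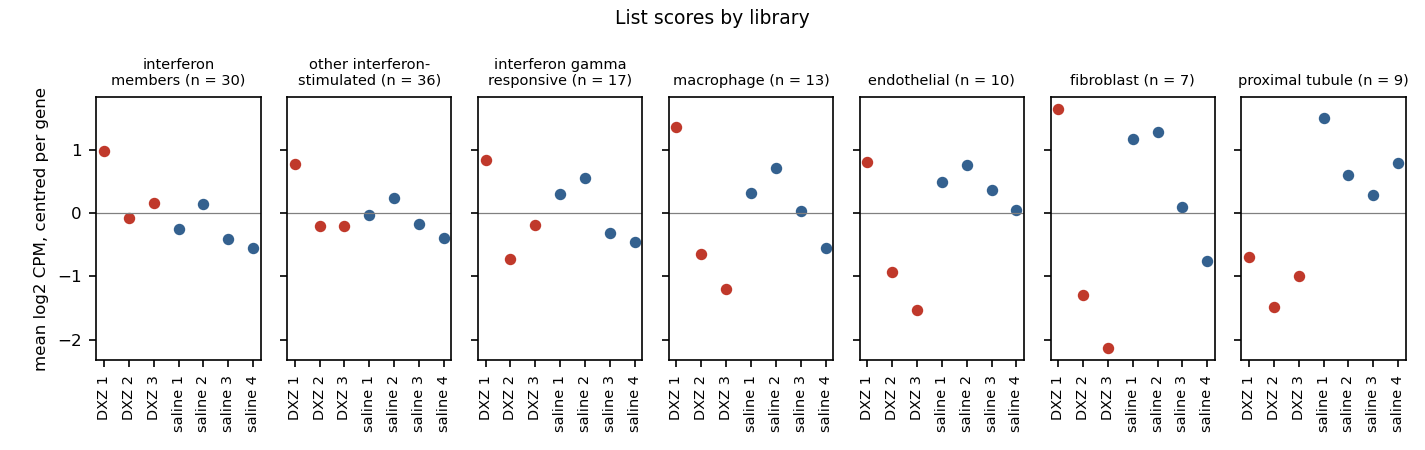
Mean log2 CPM of a gene list's tested members, less its mean over the 7 libraries, per library for the interferon-stimulated genes and for other lists, with DXZ left of saline. For the interferon-stimulated genes the DXZ points lie at 0.99, -0.08 and 0.17, against -0.56 to 0.15 in saline.

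Per length, in the FPKM values deposited by the authors (fragments scaled to gene length and library size), the members' levels differed widely. Bst2 was the most abundant, with 62.7 ± 23.5 FPKM in DXZ (SD, n = 3) and 32.1 ± 9.89 FPKM in saline (SD, n = 4). Over all 7 libraries it averaged 45.2 FPKM, followed by Ifi27l2a at 25.1, Ifit3 at 24.6, Trim25 at 17.1 and Isg15 at 16.7 FPKM. The least abundant were Oas3 at 0.074, Ddx60 at 0.16, Mx1 at 0.23 and Mx2 at 0.67 FPKM. Abundant and scarce members alike were found among those whose groups did not overlap, for example Isg15 and Mx2.

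Upstream of the members, transcripts of the interferons themselves were barely present. Of 18 interferon genes listed, 13 had no count in any library and none was tested. Their summed counts were 11, 4 and 1 in DXZ 1 to 3, against 0, 1, 1 and 4 in saline 1 to 4. Ifnb1, the interferon beta gene, had 0 counts in each DXZ library, against 0, 0, 1 and 2 counts in saline. Ifng, the interferon gamma gene, had 0, 0 and 1 counts in DXZ, against 0, 1, 0 and 0 in saline. A library with 0 counts allows a level of up to 0.169 to 0.183 CPM (3 counts, counting error only), so these levels are below what this depth can compare.

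Of 13 tested receptor and JAK-STAT genes, 0 were higher and 0 lower at an adjusted p below 0.05 (2 higher and 0 lower at an unadjusted p below 0.05, against 14.0% and 11.4% of all tested genes). DESeq2 called 1 higher, Ifngr1, against 7.61% of all tested genes. Both shares lie close to the background. Their median fold change was 0.11. Ifnar1, a subunit of the type I receptor, had 56.6 ± 5.74 CPM in DXZ (SD, n = 3) and 49.3 ± 2.30 CPM in saline (SD, n = 4) (log2 fold change 0.20, edgeR adjusted p = 0.240). Ifnar2, the other subunit, had a fold change of 0.02 (adjusted p = 0.965), and -0.22 without DXZ 1. The genes of the interferon gamma receptor had the lowest p-values of this list. Ifngr1 had 143 ± 34.2 CPM in DXZ (SD, n = 3) and 81.7 ± 24.1 CPM in saline (SD, n = 4) (log2 fold change 0.81, SE 0.25, adjusted p = 0.0961), and Ifngr2 had a fold change of 0.46 (adjusted p = 0.167).

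Of 13 tested genes of nucleic acid sensing and interferon induction, 0 were higher and 0 lower by edgeR and by DESeq2 at an adjusted p below 0.05, and 2 were higher at an unadjusted p below 0.05, close to the 14.0% of all tested genes. Their median fold change was 0.19. Tlr3, the endosomal sensor of double-stranded RNA, had a fold change of 0.35 (adjusted p = 0.112), and the adaptor Traf3 one of 0.25 (adjusted p = 0.174). Cgas, the cytosolic DNA sensor, had a fold change of 0.20 (adjusted p = 0.857), and -0.45 without DXZ 1. Zbp1, the sensor of Z-form nucleic acid, was present at 6.71, 0.968 and 1.48 CPM in DXZ 1 to 3, against 3.67, 2.68, 1.34 and 1.18 CPM in saline 1 to 4. DXZ 1 was its highest library and DXZ 2 its lowest, and the fold change was 0.46 (adjusted p = 0.726), and -0.85 without DXZ 1.

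A further list of 39 interferon-stimulated genes outside the members had 36 tested genes, of which 4 were higher and 0 lower in DXZ at an adjusted p below 0.05, against 3.24% and 2.31% of all tested genes. Isg20, an interferon-induced exonuclease, rose to 14.5, 26.9 and 16.5 CPM in DXZ 1 to 3, against 2.47, 6.60, 5.56 and 3.06 CPM in saline 1 to 4. No DXZ library came near the saline range, and DXZ 2 held the highest level (log2 fold change 2.13, SE 0.37, edgeR adjusted p = 0.0267). Tor3a, a torsin ATPase, rose to 42.3, 37.9 and 38.7 CPM in DXZ 1 to 3, against 19.5, 28.5, 24.5 and 21.7 CPM in saline 1 to 4. The groups did not overlap (log2 fold change 0.75, SE 0.14, adjusted p = 0.0297). Lgals3bp, a secreted galectin-binding glycoprotein, rose to 357, 433 and 325 CPM in DXZ 1 to 3, against 105, 219, 199.5 and 153 CPM in saline 1 to 4. DXZ 2 was its highest library (log2 fold change 1.14, SE 0.24, adjusted p = 0.0410). Ly6e, a cell-surface protein that affects viral entry, rose to 786, 803 and 793 CPM in DXZ 1 to 3, against 416, 595, 507 and 389 CPM in saline 1 to 4. The DXZ libraries were almost equal (log2 fold change 0.74, SE 0.16, adjusted p = 0.0438).

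These 4 calls all held without DXZ 1, with adjusted p-values between 0.0215 and 0.0480. All 4 were lost without DXZ 2, without DXZ 3 and without saline 4, where adjusted p-values lay between 0.0596 and 0.122 and 0 to 78 genes in all were called higher. Tor3a, Lgals3bp and Ly6e were also lost without saline 3, Lgals3bp without saline 2 and Ly6e without saline 1. The median fold change of the 36 genes was 0.24 with all libraries and -0.06 without DXZ 1. DXZ 1 was the highest library in 28 of 36, against 18.7% of all tested genes. Without DXZ 1, 4 of them were lower in DXZ (Ifitm1, Ifi203, Slfn5 and Helz2, named after their values were seen), against 5.01% of all tested genes. In a list of genes that respond mainly to interferon gamma, 0 of 17 tested genes were higher or lower by edgeR and by DESeq2 (2 higher and 0 lower at an unadjusted p below 0.05, against 14.0% and 11.4% of all tested genes). Gbp7 and Nlrc5, the regulator of MHC class I genes, had its lowest p-values (fold changes 0.42 and 0.72, adjusted p = 0.132 and 0.186). The median of that list was 0.19, and -0.12 without DXZ 1, where 1 gene, Ciita, was called lower.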

How the data were processed

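Bulk kidney RNA-seq of 3 DXZ and 4 saline libraries was used, grouped by the labels. The deposited counts are whole-number read counts per gene, per the values in the file, with no normalization. The deposited FPKM values are those counts divided by gene length and 1 constant per library, tested on the files, so they are no independent measurement. Per the submitters' processing notes, HISAT2, StringTie and the build mm9 were used, but versions and roles are absent there. The table's coordinates match GRCm38 instead (98.3% of 54409 gene identifiers shared with GENCODE M21, and 32 of 32 members) and are given as such. The program that made the counts is not given in the sources used here, nor is its strand setting.

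The members and gene lists were chosen with earlier results of these data known. Values in every library are given for the 12 tested members of lowest unadjusted p and the lowest of each role not among these. Of each other list the genes past the adjusted threshold are named, or else the 2 of lowest p, along with Ifnb1, Ifng, Ifnar1, Ifnar2, Cgas and Zbp1 whatever their result; some items of the lists are not reported here. Other genes were named after their values were seen.

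Of 54532 genes, 27180 had a count and 15351 passed filterByExpr. Counts were compared in R 4.3.3 with edgeR 4.0.16 (TMM, quasi-likelihood F test, Benjamini-Hochberg). An SE was computed as the log2 fold change over the root of its F statistic. Log2 CPM used a prior count of 2. Alternatives were other scalings and filters, DESeq2 1.42.0, limma 3.58.1 on FPKM or with voom weights, the replicate number as a block, and each library left out. In 5 simulated data sets of 15351 genes with 200 changed, the DXZ and saline comparison found 46% of the genes given a 2-fold change and 82.8% of those given a 4-fold change, with 5.43% of its calls false. The simulated counts were drawn for each gene separately, so no simulated library stood apart over many genes as DXZ 1 did. These shares hold for that setting only. In a chi-square test of counts, pairs of replicates had 15.1 to 99.1 per degree of freedom, and each was counted as its own sample.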

Additional observations from a re-analysis of the deposited data

Results flagged for a closer look

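On the log2 CPM scale, values that stood apart within the 4 saline libraries were found in 3 of 33 groups examined (the members, and the list mean), where chance flags about 1 in 20. Irf9 was highest in saline 2, at 36.0 CPM against 29.7 to 30.4 CPM in the other saline libraries, and the gap to the nearest library made up 0.887 of the group's log2 range. Mx2 was lowest in saline 3, at 1.16 CPM against 1.95 to 2.06 CPM in the others, a gap of 0.904 of the log2 range. Bst2 was highest in saline 2, at 42.7 CPM against 23.4 to 25.3 CPM in the others, a gap of 0.874 of the log2 range. The 3 DXZ libraries are too few for this check.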

How the results depend on the processing

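The median fold change of the members was positive under every alternative, and the excess of DXZ 1 over DXZ 2 and DXZ 3 lay between 0.61 and 0.89. The number of members higher in DXZ, 0 with edgeR, was 1 with median-of-ratios scaling (Ifit1, with 3.09% of all genes higher) and 2 with a filter of 1 CPM in 3 libraries (3.57%). It was 2 in each limma fit to log2 FPKM with a pseudocount of 1 (3.96%) or 0.1 (3.64%), and these 2 genes were Ifit1 and Oasl1 in all 3 cases. It was 6 with no filter (2.06%), adding Irf7, Gbp2, Isg15 and Bst2, and 9 with DESeq2 (7.61%), adding Ifit3, Ifi35 and Rtp4. The cause was not tested. DESeq2 called 1168 genes higher in all, against 498, and 1 receptor gene and 8 of the other interferon-stimulated genes. Unfiltered limma on FPKM called 90 genes (0.331% of all tested genes) and 0 of the other interferon-stimulated genes.

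The deviations of same-numbered libraries from their group means had correlations of 0.26, -0.09 and 0.23, and since not every pair passed 0.1 the numbers were not taken to pair them. With the replicate number as a block, 46 genes (0.300% of all tested genes) were higher, 1 of them among the other interferon-stimulated genes, and 0 members. The count of members lies close to that share.

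Fold changes that turned negative were Ifi27l2a (-0.21), Ifnar2 (-0.057) and Cgas (-0.11) with voom quality weights, Ifnar2 in limma on FPKM plus 1 (-0.00528, filtered or not) and plus 0.1 (-0.00803), and Cmpk2 (-0.00509), Ifi27l2a (-0.29), Ifnar2 (-0.034), Cgas (-0.16) and Zbp1 (-0.084) with the replicate block.

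With each library left out in turn, 0 to 792 genes (0% to 5.07% of all tested genes) and 0 to 1 members were higher (Ifit1 without DXZ 1, Oasl1 without saline 2). Of the other interferon-stimulated genes 0 to 4 were higher and 0 to 4 lower, and of the interferon gamma genes 0 to 1 lower. Members without overlap numbered 9 to 19 (14.4% to 20.8% of all genes), and members at an unadjusted p below 0.05 numbered 8 to 21 (11.1% to 15.0% of all genes), both alternatives chosen after seeing the data. Fold changes spanned -0.33 to 0.33 for Cmpk2, -0.69 to 0.71 for Ifi27l2a, -0.12 to 0.97 for Ifi44, -0.22 to 0.13 for Ifnar2, -0.45 to 0.56 for Cgas and -0.85 to 0.86 for Zbp1. Levels under about 3 counts, as for the interferon genes, are below what this depth can compare.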

Other observations

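Of the 18 interferon genes listed, the one with the most counts was Ifnk, interferon kappa, an epithelial interferon. It had 9, 4 and 0 counts in DXZ 1 to 3, against 0, 0, 0 and 2 counts in saline 1 to 4. It did not pass the filter on low counts and was not tested, and it was named after its values were seen.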
